A study of Mus musculus with 6 samples.

Results

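The hyaluronan and versican network is described here through 10 genes, picked by gene symbol and not by any measured value, out of the 28987 genes of the expression table. They are the hyaluronan synthases *Has1*, *Has2* and *Has3*, the hyaluronidases *Hyal1* and *Hyal2*, the proteoglycans versican (*Vcan*) and aggrecan (*Acan*), the link protein gene *Hapln1*, the hyaluronan receptor *Cd44*, and *Tnfaip6*, which encodes the secreted hyaluronan-binding protein TSG-6. All 10 were found in the table. The 8 whose linear values averaged 1 or more were tested, whereas *Acan* and *Hapln1* were below that level and are given as values only.

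Gene expression was measured by RNA-seq in EGFP+ cells isolated from mouse ventricles by sorting, 4 weeks after transverse aortic constriction (TAC), surgery that narrows the aorta and puts the heart under pressure overload. All mice carried a MerCreMer cDNA in the *Postn* locus and a Cre-dependent eGFP reporter in the Rosa locus, and all received tamoxifen (injections of 100 mg/kg plus chow at 40 mg/kg, per the labels). The paper states other tamoxifen doses than the labels do. TAC was performed at 8 to 10 weeks of age. The 3 controls carried these alleles alone, and the 3 Hsp47-deleted mice carried Hsp47flox/flox in addition, so that Hsp47, a collagen chaperone, was targeted in cells that had switched on *Postn*. The sort therefore took cells with a history of *Postn* expression in either group, and no uninjured heart was part of this comparison.

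Hyaluronan is a long, unsulfated sugar polymer that hyaluronan synthases extrude from the plasma membrane, and that hyaluronidases cut into smaller pieces. Versican and aggrecan are large chondroitin sulfate proteoglycans that bind hyaluronan through one end, and link proteins stabilise that bond. TSG-6 transfers heavy chains of inter-alpha-inhibitor onto hyaluronan, and CD44 tethers the polymer to the cell surface. In the heart this gel-like matrix is prominent in valve and cushion development and is rebuilt by fibroblasts after injury.

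By their labels, control replicates 3 and 4 were sequenced in 1 run, called the first run here, whereas control replicate 2 shared the second run with the 3 Hsp47-deleted replicates. The title of control replicate 2 lacks the prefix of the other controls, so its group was taken from its genotype label, and all second-run differences rest on this library. Values of a gene are listed below in a fixed order, with control replicates 3, 4 (first run) and 2 (second run) followed by Hsp47-deleted replicates 1, 2 and 3 (second run). Run and label were thus partly confounded, and each pooled difference is set beside the difference from the control of the second run, which has no test because that run held 1 control. *Serpinh1*, the gene of Hsp47, had log2 values of 6.28, 6.10 and 7.60 in the controls, against 6.87, 6.67 and 6.66 with the Hsp47-deleted label, a difference of 0.072 in all libraries and of -0.87 when set against the second-run control. The transcript did not separate the groups, and the libraries are called by their labels. By Western blot, the paper reports efficient loss of Hsp47 in sorted EGFP+ cells of such mice, a measure of protein and not of RNA. The 9 fibroblast markers summed to linear values from 8070 to 14300 per library. Of these, 7 had a positive and 2 a negative pooled difference. Among them *Postn* had log2 values of 5.87, 5.86 and 6.12 in the controls, against 10.22, 10.50 and 10.36 with the Hsp47-deleted label. The *Postn* difference was 4.41 in all libraries and 4.24 against the second-run control. The 11 leukocyte markers summed to 39.8 and 82.3 in the first-run controls and to 134 to 258 in the second run, with *Ptprc* listed at 0 in all 6 libraries. The 8 endothelial markers summed to 97.9 and 228 in the first run and to 263 to 583 in the second, and the 8 cardiomyocyte markers to 41.5 and 83.1 against 136 to 222. The 7 mural markers summed to 162 to 307 and the 5 mesothelial markers to 1.37 to 11.2 over all libraries. The leukocyte, endothelial and cardiomyocyte sums were lower in both first-run controls than in any second-run library, though not every marker was. The part of these cell types in the results below was not tested. Nor can fewer cells of a type be told apart from less RNA per cell in bulk libraries.

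Promoters are shown for the members whose values moved together across libraries (*Tnfaip6* and *Cd44*), for *Vcan*, which had the most negative pooled difference, and for *Has1*, a synthase that followed neither. The table of RefSeq promoters (GRCm38.p6) matched 8 of the 10 members. Each sequence runs up to 250 bases upstream of the RefSeq start, stops where an annotated transcript begins, and is written 5′ to 3′ on the strand of the gene. Capitals mark matches on either strand to 7 short motifs that were picked after the values had been seen.
Tnfaip6, chr2:52037863-52038008, plus strand: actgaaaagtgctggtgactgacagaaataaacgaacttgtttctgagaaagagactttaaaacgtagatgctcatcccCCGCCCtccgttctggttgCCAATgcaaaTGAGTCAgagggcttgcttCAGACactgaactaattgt
Cd44, chr2:102901666-102901915, minus strand: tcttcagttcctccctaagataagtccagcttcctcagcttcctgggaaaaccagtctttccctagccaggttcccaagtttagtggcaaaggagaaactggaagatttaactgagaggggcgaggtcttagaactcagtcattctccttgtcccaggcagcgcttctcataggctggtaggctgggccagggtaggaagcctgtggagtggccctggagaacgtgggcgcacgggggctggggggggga
Vcan, chr13:89742513-89742762, minus strand: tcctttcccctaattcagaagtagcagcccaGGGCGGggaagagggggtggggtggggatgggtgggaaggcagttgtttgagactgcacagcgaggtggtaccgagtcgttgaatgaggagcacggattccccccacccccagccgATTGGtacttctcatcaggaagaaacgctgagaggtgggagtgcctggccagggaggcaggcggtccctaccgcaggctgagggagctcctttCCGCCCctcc
Has1, chr17:17855206-17855438, minus strand: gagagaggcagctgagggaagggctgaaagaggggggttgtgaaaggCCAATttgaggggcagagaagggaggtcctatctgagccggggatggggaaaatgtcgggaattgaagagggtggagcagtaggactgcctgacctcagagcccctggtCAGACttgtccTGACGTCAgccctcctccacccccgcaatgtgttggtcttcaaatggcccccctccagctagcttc
The motifs were the TATA box (TATAAA, in 12.4% of all 32851 promoters over the 250 upstream bases), the CCAAT box (CCAAT, 33.8%), the AP-1 site (TGANTCA, 6.7%), the cAMP response element (TGACGTCA, 1.5%), the TEAD site (GGAATG, 12.6%), the SMAD element (CAGAC, 42.2%) and the GC box (GGGCGG, 32.7%). In the *Tnfaip6* window the capitals mark, in order, a GC box, a CCAAT box, an AP-1 match and a SMAD element. The *Cd44* window held none of the 7 motifs. The *Vcan* window held a GC box at either end and a CCAAT box between them. The *Has1* window held a CCAAT box, a SMAD element and the cAMP response element. A match is a description of letters and not of binding.

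To ask whether targeting of Hsp47 changed the network, the libraries labelled Hsp47-deleted were compared with the controls by limma over 15109 genes, adjusting p-values after Benjamini and Hochberg (BH). Values are log2(value + 1) as deposited, and a difference on this scale understates the change of low genes. None of the 8 tested members passed a BH-adjusted limma p of 0.05, against 0.245% of all genes, and at an unadjusted limma p under 0.05 *Hyal2* passed, higher in the libraries labelled Hsp47-deleted. Over all genes 14.5% passed that unadjusted threshold in the higher direction and 0.755% in the lower direction. No tested member had groups without overlap, whereas over all genes 18.3% lay wholly higher and 1.50% wholly lower in the libraries labelled Hsp47-deleted. The members had a median log2 difference of 0.061, with 5 higher and 3 lower, and the median over all tested genes was 0.35. Set against the second-run control, both medians came to 0.29.

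**Figure D1:**
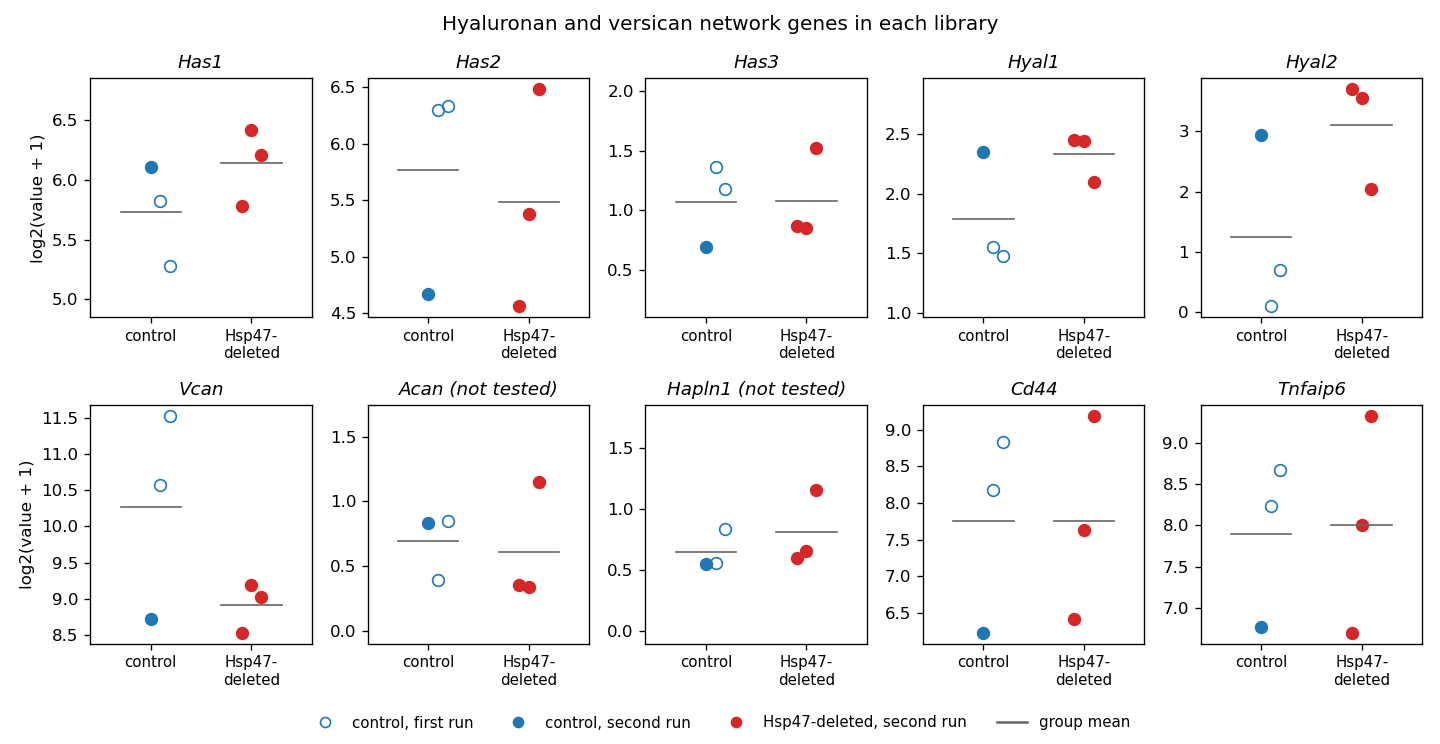
Log2(value + 1) of each of the 10 members in the 6 libraries, with 1 point per library, open points for the controls of the first run, filled points for the second run and a bar at the group mean (the vertical axes differ). For *Vcan*, *Has2*, *Cd44* and *Tnfaip6* the first-run controls lie above the second-run control, and for *Hyal1* and *Hyal2* they lie below it.

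Versican had the lowest pooled difference of the members. *Vcan* (ENSMUSG00000021614) lies on chromosome 13 from 89655312 to 89742509 on the minus strand (GRCm38, GENCODE M21) and encodes a proteoglycan that expands the pericellular matrix of migrating and activated mesenchymal cells. Its log2 value was 10.57, 11.53 and 8.72 in the controls, against 8.53, 9.19 and 9.02 with the Hsp47-deleted label. Both first-run controls were above all other libraries, and the second-run control lay inside the range of the libraries labelled Hsp47-deleted. Control libraries averaged 10.27 ± 1.43 (SD, n = 3) and those with the Hsp47-deleted label 8.91 ± 0.34 (SD, n = 3), a log2 difference of -1.36 (standard error 0.67, limma, BH-adjusted p = 0.363). Set against the second-run control alone, the difference was 0.19, in the opposite direction. Between the controls the first run exceeded the second by 2.33 (standard error 0.47), and with run and label in 1 limma fit the run term of *Vcan* passed (BH-adjusted p = 0.0455), as it did for 3.94% of all genes. In that fit the label term was 0.19 (standard error 0.45, limma, BH-adjusted p = 0.914). The run term rests on the 2 controls of the first run and the 1 control of the second, and mice, libraries and runs cannot be told apart in it.

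In linear units the same *Vcan* values were 1510 and 2960 in the first-run controls, 421 in the second-run control, and 369, 581 and 517 in the libraries labelled Hsp47-deleted. *Gm16318* and *Gm4117* overlap the span of *Vcan* on the opposite strand. The library kit does not mark strand, so reads from any shared stretch cannot be told apart. Whether exons overlap was not checked. *Gm16318*, a processed pseudogene, was at 4.97, 4.85 and 3.35 in the controls, against 2.56, 4.01 and 3.15 with the Hsp47-deleted label, and was highest in the first run. *Gm4117* was at 2.67, 3.42 and 2.38 in the controls, against 2.77, 2.95 and 2.73 with the Hsp47-deleted label, and did not separate the runs. Without control replicate 2, a setting in which run and label coincide, the *Vcan* difference was -2.14 (limma, BH-adjusted p = 0.0112). *Vcan* was 1 of 2768 genes, out of 15109 tested, that passed in that setting, against 37 genes with all libraries. Without control replicate 4 the *Vcan* difference was -0.73 (limma, BH-adjusted p = 0.647).

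**Figure D2:**
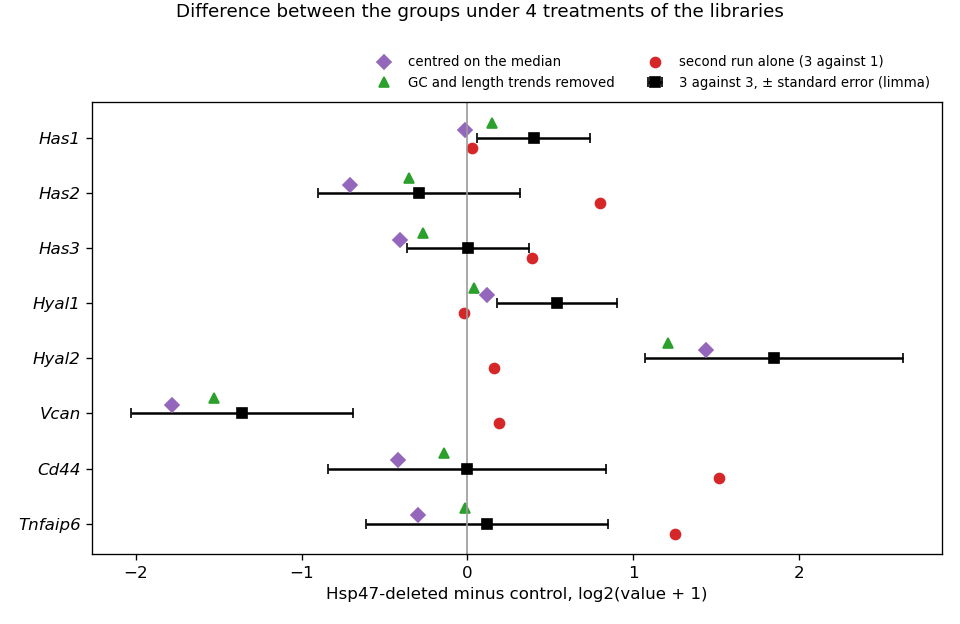
Hsp47-deleted minus control difference of the 8 tested members on the log2(value + 1) scale, as 3 against 3 libraries with the limma standard error, in the second run alone, after centring each library on its median, and after removal of trends with GC content and length. For *Vcan* the second-run value is 0.19 and the pooled value -1.36, and for *Cd44* they are 1.52 and -0.0012.

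Of the synthases, none passed the test. *Has2* (ENSMUSG00000022367, chromosome 15, 56665627 to 56694539, minus strand) makes long hyaluronan chains and is the synthase needed for cardiac cushion formation. Its log2 value was 6.30, 6.33 and 4.67 in the controls, against 4.56, 5.38 and 6.48 with the Hsp47-deleted label. The libraries labelled Hsp47-deleted spanned the whole range of the controls, with replicate 3 above and replicate 1 below all of them. Control libraries averaged 5.77 ± 0.95 (SD, n = 3) and those with the Hsp47-deleted label 5.48 ± 0.96 (SD, n = 3), a log2 difference of -0.29 (standard error 0.61, limma, BH-adjusted p = 0.833). Against the second-run control the *Has2* difference was 0.80, and the first-run controls exceeded the second-run control by 1.64. The antisense gene at this locus, *Has2os*, was at 4.94, 4.36 and 4.36 in the controls, against 4.35, 4.71 and 3.94 with the Hsp47-deleted label, a range of 1.00 over the 6 libraries. Reads from any stretch shared by the 2 genes cannot be told apart without strand, and whether exons overlap was not checked.

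*Has1* (ENSMUSG00000003665, chromosome 17, 17843323 to 17855205, minus strand), which encodes another membrane synthase, was at 5.82, 5.28 and 6.11 in the controls, against 5.78, 6.42 and 6.21 with the Hsp47-deleted label. Hsp47-deleted replicates 2 and 3 lay above the controls, and replicate 1 lay among them. The *Has1* difference was 0.40 (standard error 0.34, limma, BH-adjusted p = 0.564) in all libraries and 0.03 when set against the second-run control. *Has3* (ENSMUSG00000031910, chromosome 8, 106870242 to 106884566, plus strand), a synthase known for shorter chains, was near the filter, at 1.36, 1.18 and 0.69 in the controls, against 0.87, 0.85 and 1.52 with the Hsp47-deleted label. It averaged 1.07 ± 0.35 (SD, n = 3) and 1.08 ± 0.39 (SD, n = 3), the groups overlapped, and the difference from the second-run control was 0.39. With the libraries centred on their medians the *Has1* difference was -0.012 and the *Has3* difference -0.41, so no direction is given for either gene.

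The receptor and TSG-6 had the widest spread within the libraries labelled Hsp47-deleted. *Cd44* (ENSMUSG00000005087, chromosome 2, 102811141 to 102901665, minus strand) encodes the main cell surface receptor for hyaluronan. It was at 8.18, 8.83 and 6.23 in the controls, against 6.42, 7.63 and 9.19 with the Hsp47-deleted label. Hsp47-deleted replicate 3 was the highest of all libraries and the second-run control the lowest. The 2 groups averaged 7.75 ± 1.36 (SD, n = 3) and 7.75 ± 1.39 (SD, n = 3), with a log2 difference of -0.0012 (standard error 0.84, limma, BH-adjusted p = 0.999). Against the second-run control alone, the *Cd44* difference was 1.52, and the 3 libraries labelled Hsp47-deleted covered a range of 2.76.

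*Tnfaip6* (ENSMUSG00000053475, chromosome 2, 52038009 to 52056686, plus strand), a gene known to be induced by inflammatory cytokines, followed the same course. Its log2 value was 8.24, 8.67 and 6.77 in the controls, against 6.70, 8.01 and 9.33 with the Hsp47-deleted label. Again Hsp47-deleted replicate 3 was highest, and Hsp47-deleted replicate 1 and the second-run control were lowest. The *Tnfaip6* difference was 0.12 (standard error 0.73, limma, BH-adjusted p = 0.949), which became 1.25 against the second-run control and -0.54 without Hsp47-deleted replicate 3.

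The order of the 6 libraries was the same for *Has2* and *Tnfaip6*, from Hsp47-deleted replicate 1 through control replicate 2, Hsp47-deleted replicate 2 and control replicates 3 and 4 to Hsp47-deleted replicate 3. *Cd44* differed from it only in that the 2 lowest libraries changed places. Of the other 15108 tested genes, 88 (0.582%) had exactly the order of *Has2*, and from the network and its wider lists these were *Tnfaip6* and *Ptx3*. *Ptx3* encodes pentraxin 3, which joins TSG-6 and heavy chains in cross-linked hyaluronan, and it was at 8.72, 9.08 and 5.92 in the controls, against 5.76, 7.27 and 9.75 with the Hsp47-deleted label. *Vcan* did not share the rise in Hsp47-deleted replicate 3, where it was at 9.02, below both first-run controls. This comparison of orders was made after the values were seen and is a description over 6 libraries that share runs. A list of 10 valve interstitial and tendon-like markers, of which 9 were tested and 8 had a positive pooled difference, had linear sums of 2300, 3900 and 598 in the controls, against 1750, 2460 and 5140 with the Hsp47-deleted label. Within the list *Prg4*, which encodes lubricin, was at 11.04, 11.85 and 7.92 in the controls, against 9.07, 9.81 and 11.85 with the Hsp47-deleted label. In linear units *Prg4* was at 2110, 3680 and 241 in the controls, against 536, 896 and 3680 with the Hsp47-deleted label. It thus made most of the list sum in both first-run controls and in Hsp47-deleted replicate 3. The *Prg4* difference was -0.029 in all libraries and 2.32 against the second-run control. The list had a median difference of 1.79, against 0.35 for all tested genes. The groups did not overlap at 6 of its 9 tested genes, all higher, and 18.3% of all genes lay wholly higher. *Comp* and *Fmod* passed the BH-adjusted limma threshold, as did 0.245% of all genes. The list holds *Tnmd*, *Chad* and *Fmod*, which the paper reports as induced in Hsp47-deleted myofibroblasts, so its counts are not an independent result. The part of the listed markers in the values of *Has2*, *Cd44* and *Tnfaip6* was not tested.

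**Figure D3:**
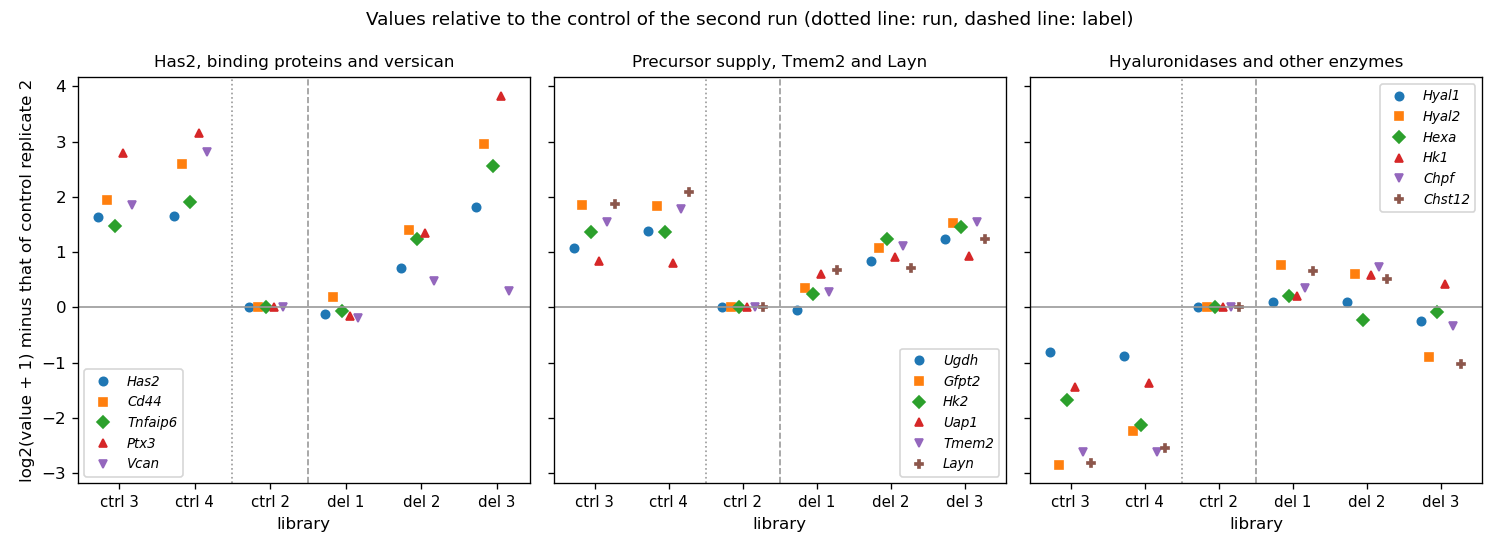
Log2(value + 1) of named genes in each library minus that of control replicate 2 (ctrl, control; del, Hsp47-deleted), with a dotted line between the runs and a dashed line between the labels. In the left panel *Has2*, *Cd44*, *Tnfaip6* and *Ptx3* lie high in the first run and in Hsp47-deleted replicate 3. *Vcan* lies high in the first run and near the line in Hsp47-deleted replicate 3. In the right panel all first-run points lie below the line. The non-member genes were picked for display after their values were seen.

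The 2 member hyaluronidases, *Hyal1* and *Hyal2*, took the opposite course to versican between the runs. *Hyal2* (ENSMUSG00000010047, chromosome 9, 107567945 to 107572779, plus strand) encodes a membrane-anchored enzyme that starts the breakdown of long hyaluronan at the cell surface. Its log2 value was 0.094, 0.70 and 2.94 in the controls, against 3.70, 3.55 and 2.04 with the Hsp47-deleted label. It was below 1 in both first-run controls, and the second-run control lay within the libraries labelled Hsp47-deleted. The 2 groups averaged 1.25 ± 1.50 (SD, n = 3) and 3.10 ± 0.92 (SD, n = 3), a log2 difference of 1.85 (standard error 0.78, limma, BH-adjusted p = 0.323). The difference was 0.16 against the second-run control. In linear units *Hyal2* was at 0.0671 and 0.629 in the first-run controls, 6.68 in the second-run control, and 12.0, 10.7 and 3.12 in the libraries labelled Hsp47-deleted. At such low values the pseudocount sets the size of the difference, which was 3.00 with a pseudocount of 0.1 and 0.90 with a pseudocount of 5. *Hyal2* passed the test without control replicate 2, where run and label coincide (2.70, limma, BH-adjusted p = 0.0193). It was 1 of 2768 genes, out of 15109 tested, that passed in that setting.

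*Hyal1* (ENSMUSG00000010051, chromosome 9, 107576927 to 107581710, plus strand), whose product degrades hyaluronan fragments in lysosomes, was at 1.55, 1.48 and 2.35 in the controls, against 2.45, 2.44 and 2.10 with the Hsp47-deleted label. Again both first-run controls were lowest. The *Hyal1* difference was 0.54 (standard error 0.36, limma, BH-adjusted p = 0.479) in all libraries and -0.021 when set against the second-run control. *Gm16343*, *Naa80* and *Hyal3* overlap the span of *Hyal1*. Whether exons overlap was not checked, so part of the *Hyal1* signal may be uncertain. *Acan*, the aggregating proteoglycan of cartilage, ranged from 0.34 to 1.15 over the 6 libraries, and *Hapln1*, whose product locks versican and aggrecan to hyaluronan, from 0.55 to 1.16. Both genes had their highest value in Hsp47-deleted replicate 3, and for both the groups overlapped.

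With run and label fitted together, an unadjusted run-term limma p under 0.05 was reached by *Vcan*, *Hyal2* and *Cd44*, 3 of the 8 tested members, and by 26.5% of all genes. This test was added after the values were seen. The 5 members with higher values in the first run were *Has2*, *Has3*, *Vcan*, *Cd44* and *Tnfaip6*, and the median first-minus-second-run control difference of the members was 1.11, against -0.11 for all tested genes. Over all 15109 tested genes, 5548 were higher in both first-run controls than in the second-run control, and 7009 were lower. GC content moved with the run across the table. For the 2957 tested genes with the lowest transcript GC content (18.1% to 43.8%) the median first-minus-second-run control difference was 0.24, and for the 2957 with the highest (55.0% to 76.5%) it was -0.75. Transcript GC content was 40.6% for *Has2*, 41.1% for *Tnfaip6*, 43.7% for *Vcan* and 44.5% for *Cd44*, and 52.8% for *Hyal1* and 55.2% for *Hyal2*. *Has1* (48.1%) and *Has3* (49.0%) had similar GC content, and their first-minus-second-run control differences were -0.56 and 0.58. With the trends with GC content and length removed, the *Vcan* difference was -1.53 (limma, BH-adjusted p = 0.653) and the *Hyal2* difference 1.21 (limma, BH-adjusted p = 0.691). The part of GC content in these values was not otherwise tested.

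Genes around the network were described through 7 lists with 82 genes in the table, of which 70 were tested. None passed a BH-adjusted limma p of 0.05, while 5 reached an unadjusted limma p under 0.05, each of them higher in the libraries labelled Hsp47-deleted. Those 5 were *Hk1*, *Fn1*, *Chpf*, *Xylt2* and *B4galt7*, of which the last 2, enzymes that start the chondroitin sulfate linker, were named after their values were seen. The groups did not overlap at 15 of the 70 genes, 14 higher and 1, *Dsel*, lower, next to 18.3% and 1.50% of all genes. The share of all genes that passed the unadjusted threshold was 14.5% higher and 0.755% lower, so the higher direction is that of the table as a whole. Their median log2 difference was 0.28, with 50 higher and 20 lower.

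Precursor supply covers the enzymes that make UDP-sugars for hyaluronan, and 9 genes were tested, with a median of 0.061 (5 higher, 4 lower). *Hk1*, a hexokinase, was at 2.69, 2.75 and 4.12 in the controls, against 4.32, 4.70 and 4.54 with the Hsp47-deleted label. The groups did not overlap, with a difference of 1.34 (standard error 0.43, limma, BH-adjusted p = 0.283), of which 0.41 remained against the second-run control. Of the 9 genes, 8 were higher in both first-run controls than in the second-run control, as were 5548 of all 15109 tested genes. *Gfpt2*, which directs glucose carbon towards hexosamines, was at 9.84 and 9.82 in the first-run controls, 7.99 in the second-run control and 8.35, 9.06 and 9.52 with the Hsp47-deleted label. *Ugdh*, the source of UDP-glucuronic acid, was at 8.92, 9.23 and 7.85 in the controls, against 7.81, 8.69 and 9.08 with the Hsp47-deleted label. These 2 genes, named after their values were seen, were high and low in much the same libraries as *Has2*.

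Of the other degradation genes, 6 of 7 were tested and *Spam1* is listed at 0 in every library. *Hyal3* and *Tmem2*, named after their values were seen, were higher in both first-run controls than in the second-run control, as *Vcan* was. They were at 1.97, 2.00 and 1.83 and at 4.56, 4.80 and 3.02 in control replicates 3, 4 and 2. Another 2 of the 6 were lower in both first-run controls. *Hexa*, a lysosomal hexosaminidase subunit, had the smallest p, with a difference of 1.23 (standard error 0.53, limma, BH-adjusted p = 0.33) and of -0.034 against the second-run control. Of 12 tested hyaluronan-binding proteins and receptors, 7 were higher and 5 lower, with a median of 0.026. *Itih2*, a heavy chain of inter-alpha-inhibitor, was at 3.79, 3.69 and 3.86 in the controls, against 4.15, 4.38 and 4.67 with the Hsp47-deleted label. The *Itih2* groups did not overlap, and the difference was 0.62 (standard error 0.29, limma, BH-adjusted p = 0.342), next to 0.54 against the second-run control.

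Chondroitin sulfate chain synthesis supplies the side chains of versican. Of its 18 tested genes 14 were higher and 4 lower, with a median of 0.50, which was 0.08 with the libraries centred on their medians and 0.24 against the second-run control. *Chpf*, a chondroitin polymerizing factor, was at 2.51, 2.52 and 5.13 in the controls, against 5.49, 5.87 and 4.80 with the Hsp47-deleted label. Its difference was 2.00 (standard error 0.71, limma, BH-adjusted p = 0.296), of which 0.25 remained against the second-run control. Of the 8 tested proteases that cut versican and aggrecan and their inhibitor, *Adamts4* had the smallest p, at 5.50, 5.46 and 4.64 in the controls, against 5.57, 5.64 and 5.81 with the Hsp47-deleted label. It was higher in each library labelled Hsp47-deleted than in any control, by 0.47 between the means (standard error 0.33, limma, BH-adjusted p = 0.492) and by 1.03 when set against the second-run control.

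Among 10 tested versican partner proteins, 8 were higher, with a median of 0.48 that was 0.062 with centring and -0.0069 with quantile normalization. *Fn1*, which encodes fibronectin, was at 8.15, 8.36 and 8.06 in the controls, against 8.70, 9.10 and 9.35 with the Hsp47-deleted label. The *Fn1* groups did not overlap, and the difference was 0.86 (standard error 0.30, limma, BH-adjusted p = 0.294) in the pooled comparison and 0.99 against the second-run control. By RT-PCR the paper reports the opposite direction, a reduced fibronectin mRNA in Hsp47-deleted EGFP+ myofibroblasts isolated after TAC. The reason for this difference was not tested. Of 7 tested CD44 partners 4 were higher and 3 lower. *Cd74*, the invariant chain of antigen-presenting cells, had the smallest p in that list, with values of 3.36 and 1.80 in the first-run controls, 6.19 in the second-run control and 5.78, 6.13 and 6.01 in the libraries labelled Hsp47-deleted. The *Cd74* difference was 2.19 (standard error 0.96, limma, BH-adjusted p = 0.331) in all libraries and -0.21 when set against the second-run control. The summed leukocyte markers given above were low in the same 2 first-run libraries. Of the 9 tested, 7 were lower in both first-run controls than in the second-run control, and *Cd68* and *Itgam* were higher. Over all 15109 tested genes, 7009 were lower in this way and 5548 higher. The part of the leukocyte markers in the *Cd74* value was not tested.

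**Figure D4:**
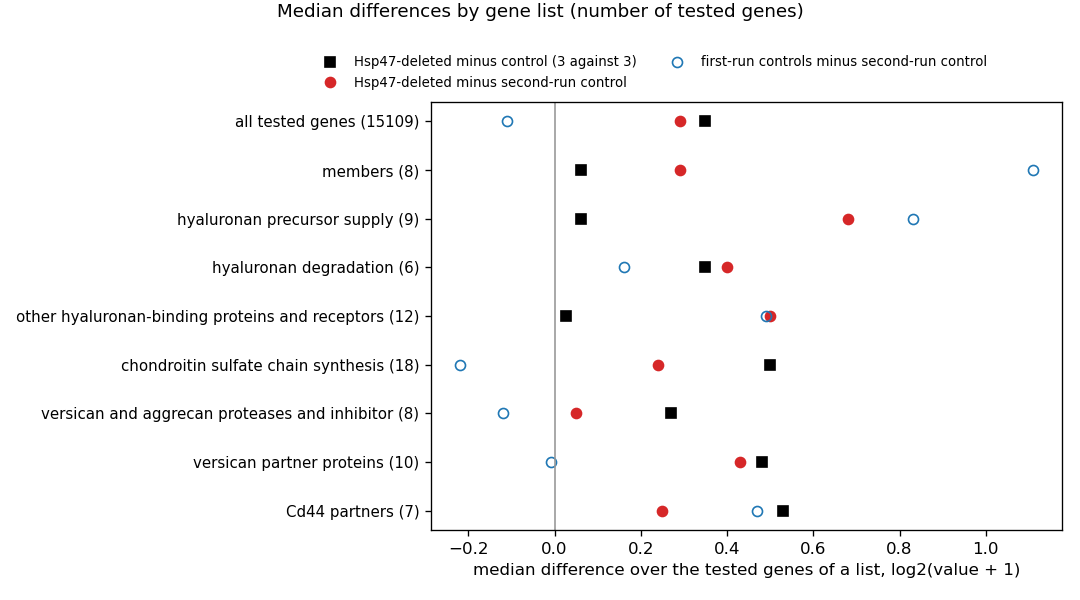
Median difference over the tested genes of each list on the log2(value + 1) scale, for 3 against 3 libraries (squares), against the second-run control (filled circles) and between the first-run and second-run controls (open circles). The members have medians of 0.061, 0.29 and 1.11, and all tested genes have 0.35, 0.29 and -0.11.

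The tested genes with named symbols most like *Vcan* over the 6 libraries, out of 12603, were *Btbd3* (Pearson r 0.997), *Ppp3cb* (r 0.995) and *Lrrc10b* (r 0.995). Those most like *Hyal2* were *Smarcal1*, with a Pearson r that rounds to 1, *Cep135* (r 0.999) and *Pet100* (r 0.997). These are the largest of 12603 correlations over 6 libraries that share runs and are a description only. *Btbd3* was at 4.48, 4.82 and 3.85 in the controls, against 3.76, 3.92 and 3.96 with the Hsp47-deleted label, so it had the run split of *Vcan* over a smaller range.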

How the data were processed

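RNA of sorted EGFP+ cells was amplified (Ovation v2) before Nextera XT libraries were sequenced on a HiSeq2500. The submitters' processing notes name kallisto and the mm10 build without versions, and the paper names AltAnalyze. The authors deposited log2(value + 1) per gene for 6 libraries, a mean per group and their own comparison (folds, p-values and adjusted p-values), which was not used here. The linear unit is not named, so the depth per library is unknown and levels were not compared between genes. The linear values summed to 690499 to 855404 per library. Nothing in the labels names the animals behind the libraries, so p-values measure the spread between these samples.

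Groups were tested on the deposited log2 values by limma 3.58.1 under R 4.3.3 (lmFit, eBayes with a mean-variance trend, no covariate), for 15109 genes with a linear mean of at least 1, and 13878 genes were left out. P-values were two-sided and BH-adjusted over these genes. An exact permutation test of 3 against 3 cannot give a p under 0.1. The fit was tested on simulated data with independent noise and no run effect. That test therefore does not cover the partial confounding of run and label. Positions, overlaps and GC content came from GENCODE M21 (GRCm38, the assembly of mm10).

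The members, lists and tests were chosen with earlier results of these data known. The text names all 10 members, *Serpinh1*, the gene of each list with the smallest p in each direction under 0.05 (otherwise the smallest p), and the 3 genes most like *Vcan* and *Hyal2* by Pearson r (predicted genes left out). Further genes were picked with their values in view. Alternatives were run as a covariate, the second run alone, the replicate number as a block, other filters, pseudocounts and scalings, no trend, and each library left out. Removal of trends with GC content and length (lowess, span 0.3) was added after the data were seen.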

Additional observations from a re-analysis of the deposited data

How the results depend on the processing

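Of 134 member values under the alternatives, 103 were counted as unchanged and 26 changed sign. Other filters and no trend leave the difference itself as it was. Run as a covariate gives the same difference as the second run alone, so a change of sign there counts in both. The counts therefore describe the settings and do not measure robustness. A value with a test counted as unchanged if it kept its direction and its side of the threshold. Values of the second run alone have no test. They counted as unchanged if they kept their direction and moved by less than the SD of the controls. No member passed a BH-adjusted limma p of 0.05 in 15 of the 16 alternatives with a test. The exception left out control replicate 2, where run and label coincide. There *Vcan* and *Hyal2* passed, among 2768 of the 15109 tested genes. Leaving out each library gave from 0 to 2 members called, 0 to 11 genes called in the wider lists and 8 to 2768 genes called over all. The count over all genes, 37, was 50 with run as a covariate, 16 with a pseudocount of 0.1, 17 with quantile normalization, 18 with centring on the median and 15 without the GC and length trends. The cause was not tested. Changes of sign are given here as log2 differences. With run as a covariate, and in the second run alone, they were 0.80 for *Has2*, -0.021 for *Hyal1*, 0.19 for *Vcan* and 1.52 for *Cd44*. With centring they were -0.012 for *Has1*, -0.41 for *Has3* and -0.30 for *Tnfaip6*. With quantile normalization *Has3* was at -0.43 and *Tnfaip6* at -0.43, and without the GC and length trends at -0.27 and -0.016. Leaving out each library gave -0.84 to 0.16 for *Has2*, -0.22 to 0.15 for *Has3*, -0.76 to 0.66 for *Cd44* and -0.54 to 0.78 for *Tnfaip6*. An unadjusted limma p under 0.05 was reached by *Vcan* and not by *Hyal2* with quantile normalization (0.0295), centring (0.0381) and removal of the GC and length trends (0.0293). Of 119 list medians, 18 changed sign. The median over all tested genes moved from 0.35 to -0.06 with centring, -0.048 with quantile normalization and -0.0038 without the GC and length trends. These treatments bring that median near 0 by construction, and the list medians in the same settings include that shift.

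Replicate numbers 2 and 3 occur in both groups, and deviations of same-numbered libraries from their group means correlated at 0.156 and 0.228. The labels do not tie the numbers to a shared animal or day. With the replicate block 0 genes passed a BH-adjusted limma p of 0.05 and 1545 an unadjusted limma p under 0.05, and the differences were 0.45 for *Has2* and 1.20 for *Cd44*. In that fit *Cd44* and *Tnfaip6* passed the unadjusted threshold. The run and the label can be separated only through the 1 control of the second run, and the reads behind each value are unknown.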

Other observations

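Values of a few cytokine and early response genes are given for the same libraries, named after their values were seen. *Il6*, a cytokine gene, was at 10.57, 10.88 and 7.60 in control replicates 3, 4 and 2 and at 8.19, 9.62 and 10.95 in Hsp47-deleted replicates 1, 2 and 3. *Ptgs2*, the inducible cyclooxygenase, was at 10.22, 10.71 and 7.10 and at 7.27, 8.72 and 10.09. The chemokine gene *Ccl2* was at 8.02, 7.98 and 6.25 and at 6.50, 7.40 and 9.60. For all 3 genes the second-run control was lowest and Hsp47-deleted replicate 1 next, as for *Cd44*. The early response gene *Fos* was at 5.46, 4.32 and 9.90 in control replicates 3, 4 and 2 and at 10.23, 10.13 and 8.04 in Hsp47-deleted replicates 1, 2 and 3, and *Jun* at 5.25, 4.90 and 8.67 and at 9.03, 8.86 and 7.13. Both were lowest in the first-run controls and highest in Hsp47-deleted replicate 1, as was *Hyal2*.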
